A study of Mus musculus with 4 samples.

Results

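Amino acid transporters are membrane proteins that carry amino acids, and in some cases related osmolytes and transmitters, into and out of cells. They were examined here in kidney RNA of Th3 mice against kidney RNA of control mice. The Th3 deletion, a model of beta-thalassemia, takes out both adult beta-globin genes, beta-major and beta-minor, on the chromosome that carries it. The group was chosen by name: every gene of the carrier families Slc1, Slc3, Slc6, Slc7, Slc36, Slc38 and Slc43 on the array, plus Tmem27 (current symbol Cltrn), which encodes collectrin. The names gave 56 genes, of which 50 were well above background in either dye on all 4 arrays. Of these, 46 also passed the filter of the test, which asks for signal well above background in the Th3 samples of all 4 arrays or in the control samples of all 4. They stand among 17640 genes tested. The other 6, among them Slc1a7, Slc6a2, Slc6a5, Slc7a11 and Slc7a14, were too dim, and Slc36a3, Slc6a11, Slc6a3 and Slc7a15 met the brightness rule but not the filter. At the edge of the filter, Slc6a7 and Slc7a2 were well above background in 4 Th3 and 2 control samples, and Slc6a11 in 3 of each.

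By the design there were 4 Th3 and 4 control RNAs. Each of 4 two-colour oligonucleotide arrays carried 1 of each, with Th3 in the Cy5 dye on arrays 1 and 2 and in Cy3 on arrays 3 and 4. The controls are labelled only as controls. The labels give neither age nor sex, nor whether the deletion was on 1 or both chromosomes. They also do not say if the RNAs are from separate animals. The p-values of the main test rest on the spread between arrays with Th3 in the same dye, and that spread may be technical. They leave out the spread between the pair of arrays 1 and 2 and the pair of arrays 3 and 4. All arrays lay on 1 slide and were scanned on 1 date. In each channel 61.8% to 72.18% of probes stood well above background, no spot was saturated, and precision is limited by the small number of arrays. The deleted beta-globin gene (Hbb-bt, Hbb-b1 on the array) was lower on 4 of 4 arrays, with 8.48% of the control level left (log2 ratio -3.56 ± 0.48, SD, n = 4, adjusted p = 2.8e-06).

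The kidney filters free amino acids into the urine and the proximal tubule takes nearly all of them back. At the apical, urine-facing membrane, sodium-coupled carriers of the Slc6 family take up neutral amino acids, and collectrin brings several of them to the brush border. Cystine and cationic amino acids enter through b0,+, a heteromer of the heavy chain Slc3a1 and the light chain Slc7a9, while the heavy chain Slc3a2 pairs with other Slc7 light chains at the basolateral, blood-facing membrane. Other families carry glutamate (Slc1), glutamine (Slc38), small neutral amino acids with protons (Slc36) and branched-chain amino acids (Slc43).

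The promoters of Slc43a1 and Slc38a5 are shown as examples, as the 250 bases before the annotated start, from RefSeq on build GRCm38.p6. Both genes were brighter in Th3 on every array, as were others, among them Slc6a19, Slc6a6, Slc3a1 and Slc7a3, whose promoters are not shown. The E-box, which basic helix-loop-helix factors bind, was searched as CACGTG on both strands, and capitals mark the matches. The first promoter lies at chr2:84840073-84840322 and the second at chrX:8271131-8271380, both on the plus strand.
Slc43a1: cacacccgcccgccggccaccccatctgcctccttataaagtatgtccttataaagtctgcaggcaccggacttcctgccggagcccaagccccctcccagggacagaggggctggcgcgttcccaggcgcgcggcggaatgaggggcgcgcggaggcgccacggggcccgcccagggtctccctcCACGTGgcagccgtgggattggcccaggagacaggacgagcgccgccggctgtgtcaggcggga
Slc38a5: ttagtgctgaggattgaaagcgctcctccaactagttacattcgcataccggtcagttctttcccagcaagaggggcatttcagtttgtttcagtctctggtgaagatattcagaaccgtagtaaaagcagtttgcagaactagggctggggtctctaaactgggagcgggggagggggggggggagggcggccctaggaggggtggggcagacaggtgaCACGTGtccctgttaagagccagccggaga
The E-box letters began 64 bases before the start of Slc43a1 and 30 bases before that of Slc38a5. They were in 1978 of 32851 promoters of this length, 6.02%, and in 5 of 50 promoters of tested transporters (30 of the 46 genes were in the table). A match describes the letters in this window and no binding was measured. Whether genes that rose hold these letters more often than others was not tested.

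Of the 46 transporters, 7 were higher and 9 lower in Th3 kidney at an adjusted p under 0.05, and 30 were not called. Slc38a5, counted among the 7, passed the filter only through its Th3 samples, where it was brighter, so that its call carries no weight of its own. In the same test 10.9% of all genes were higher, 10.6% lower and 21.5% called in either direction, against 34.8% of the transporters. The median log2 ratio of the transporters was -0.01, beside 0.0011 over all genes. Slc7a13 and Slc6a15 were lower by more than 2-fold on average, and no transporter rose by as much as 2-fold. The 30 that were not called had mean log2 ratios between -0.25 and 0.16. In 18 transporters the log2 ratio had 1 sign on every array, beside 37.1% of all genes. In 11 the 4 Th3 signals and the 4 control signals did not overlap, where 21% of all genes measured on every array had no overlap. A kidney RNA sample mixes all its cell types, so fewer cells of a type and less RNA per cell cannot be told apart in any of these values.

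**Figure D1:**
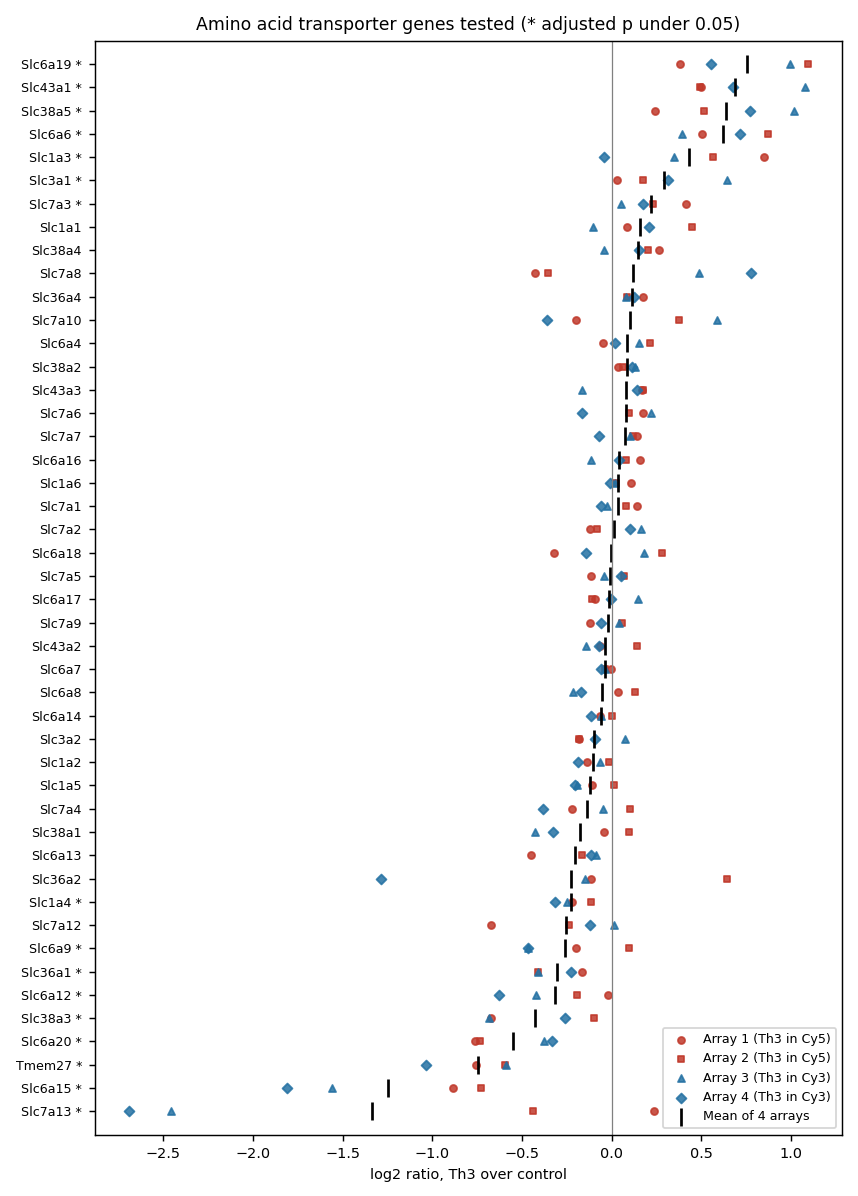
Log2 ratio of Th3 over control (x axis) for each of the 46 transporter genes tested (y axis), with 1 point per array, red for Th3 in Cy5 and blue for Th3 in Cy3, the mean as a black bar, and a star for an adjusted p under 0.05. Most genes lie near 0, Slc6a19 has the highest mean (0.76) and Slc7a13 the lowest (-1.34), and the points of Slc7a13 split by colour.

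Of the 4 genes grouped as apical neutral amino acid carriers and collectrin, 1 rose and 2 fell. Slc6a20 stands in this group by its name on the array, though its probe now belongs to Slc6a20b. The paralog Slc6a20a, which has another name on the array, is not counted. Slc6a19 encodes B0AT1, the main sodium-coupled carrier of neutral amino acids in the proximal tubule brush border. Its log2 signals in the control samples of arrays 1 to 4 were 11.05, 10.94, 10.82 and 10.79, and in the Th3 samples 11.43, 12.04, 11.81 and 11.35. Every Th3 sample was brighter than every control sample, and the Th3 samples differed more among themselves. The mean log2 ratio was 0.76 ± 0.34 (SD, n = 4 arrays, adjusted p = 0.0102), a 1.69-fold rise, measured by a probe at chr13:74147439-74147498 on the minus strand of build mm8.

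Collectrin moved the other way. Tmem27 had log2 signals of 15.19, 15.27, 15.21 and 15.35 in control and 14.43, 14.67, 14.62 and 14.31 in Th3 kidney. The 8 signals formed 2 groups without overlap, and the Th3 level was 59.7% of control (log2 ratio -0.74 ± 0.21, n = 4, adjusted p = 0.0033; probe at chrX:159462794-159462853, plus strand, mm8).

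Slc6a20, whose probe now belongs to Slc6a20b, is of the family of sodium-coupled imino acid carriers. Control signals were 11.26, 11.67, 11.38 and 11.30 on the log2 scale, and Th3 signals were 10.50, 10.94, 11.00 and 10.96. All Th3 samples lay below all control samples, and the level in Th3 was 68.2% of control (log2 ratio -0.55 ± 0.23, n = 4, adjusted p = 0.0020). The neighbouring paralog Slc6a20a, named Xtrp3s1 on the array, did not pass, with log2 ratios of -0.02, 0.07, 0.21 and 0.66 on arrays 1 to 4 (mean 0.23 ± 0.30, adjusted p = 0.0961). The 2 genes were read by different 60-base probes, of which the first 30 bases are shown because the calls for related genes depend on the probe.
Slc6a20 at chr9:123443777-123443836, minus strand, mm8: acgtggtgactaaggattatcctacatacg
Xtrp3s1 at chr9:123485442-123485501, minus strand, mm8: aggttaaggcttctttgtcatcaaaggtta
Whether either probe also binds RNA of the other gene was not tested. Slc6a18, the neighbour of Slc6a19 and a related apical carrier, had a log2 ratio of -0.00 ± 0.28 in its brightest probe and of -0.18 and -0.17 in its other probes, none of which passed.

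**Figure D2:**
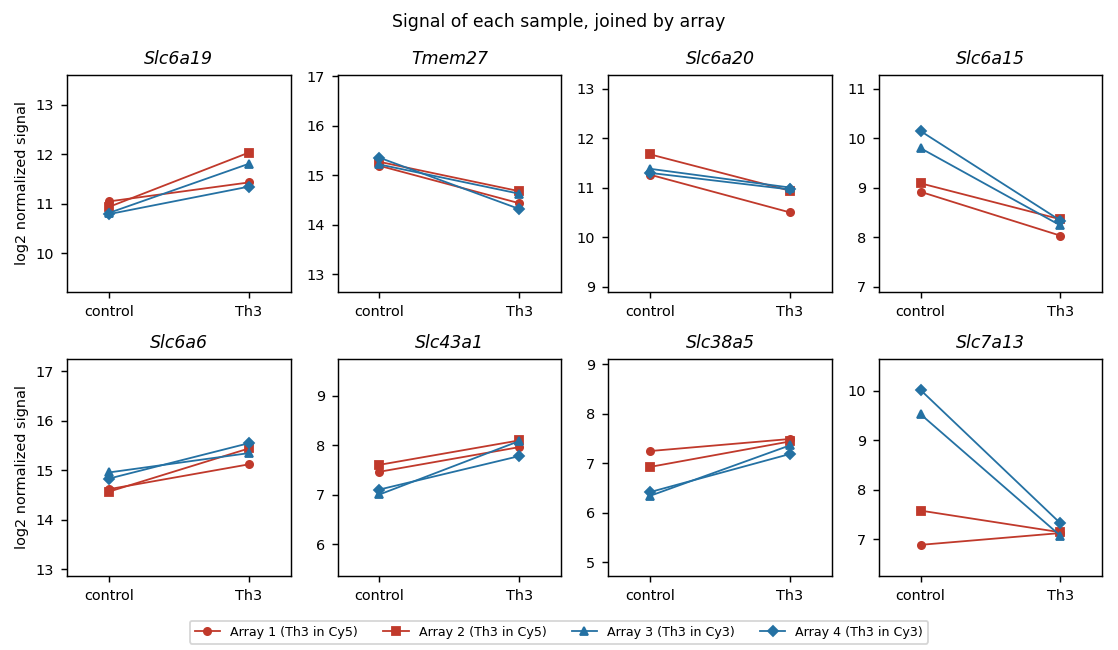
Log2 normalized signal (y axis) of the control and the Th3 sample of each array (x axis), joined by a line per array, red for Th3 in Cy5 and blue for Th3 in Cy3, in 1 panel for each of 8 transporters. Slc6a19 and Slc6a6 rise and Tmem27, Slc6a20 and Slc6a15 fall on every array, and in Slc7a13 the 4 Th3 samples lie together while the control samples lie apart.

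Among the heavy chains and heteromeric carriers, 1 of 10 rose, 1 fell and 8 were not called. Slc7a13 encodes AGT1, a light chain that carries aspartate, glutamate and cystine in the late proximal tubule. Its control signals were 6.88, 7.57, 9.52 and 10.01 on arrays 1 to 4, and its Th3 signals 7.12, 7.14, 7.07 and 7.32, on the log2 scale. The Th3 samples were all alike and low, where the lowest Th3 signal well above background was 6.20 on array 1 and 6.33 on array 4. The controls of arrays 3 and 4 were far above those of arrays 1 and 2, so that the groups overlapped. The log2 ratios were 0.24, -0.44, -2.46 and -2.69, a mean of -1.34 ± 1.46 (n = 4, adjusted p = 0.0016), with pair means of -0.10 where Th3 was in Cy5 and -2.58 where it was in Cy3. The mean was -1.99 from the scanner's processed signals, so its size depends on the processing.

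Dye and sample pairing cannot be told apart for Slc7a13, since each dye orientation holds its own samples. Its dye term passed too (adjusted p = 0.0356), as it did for 0.975% of all genes. Without the dye term the adjusted p was 0.128, and with array pairs as a random block 0.146, so the call was lost (range over all alternatives 1.4e-09 to 0.146). A separate probe of the gene gave log2 ratios of -0.01, -0.24, -1.74 and -2.06, the same split. This probe was dimmer, well above background in 4 Th3 and 3 control samples. The first 30 bases of both are shown because probes from separate parts of the gene gave this pattern.
Slc7a13 probe at chr4:19768758-19768817, plus strand, mm8: ccatactgtgttccagataaaggttaagtg
Slc7a13 probe at chr4:19746557-19746616, plus strand, mm8: cccagaggtctctcagttaatagaagctat

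Some other genes were also brighter in the controls of arrays 3 and 4. Cyp7b1, Acsm3, Jchain and Lyz2 are given for that pattern, and its share among all genes was not counted. Cyp7b1, a steroid hydroxylase of the proximal tubule, had control signals of 9.93, 9.70, 11.44 and 12.37 and Th3 signals of 10.25, 9.93, 9.95 and 10.15. Acsm3, an acyl-CoA synthetase of the same tubule, had control signals of 8.91, 9.45, 10.45 and 10.71. Its Th3 signals were 9.93, 9.61, 9.53 and 9.30. Jchain, of plasma cells, and Lyz2, of macrophages, were also brighter in the controls of arrays 3 and 4 (12.19 and 11.38 for Jchain, 14.62 and 14.87 for Lyz2) than in those of arrays 1 and 2 (8.48 and 7.87, 13.65 and 13.20). Unlike those of Slc7a13, their Th3 signals were not level. They were 7.14, 7.37, 8.69 and 8.30 for Jchain and 14.09, 13.35, 13.34 and 13.01 for Lyz2. The controls of Kap, the kidney androgen-regulated protein, were not brighter on arrays 3 and 4. Its log2 signals were 17.63 to 18.14 in all controls and 14.15 to 15.19 in all Th3 samples. Other proximal tubule markers fell more on arrays 1 and 2 than on arrays 3 and 4. Among them, the pair means of the log2 ratio were -1.29 and -0.34 for Slc22a7 and -0.66 and -0.27 for Slc22a8. Xist, expressed in female cells, was bright, far above background, and alike in all 8 samples, at 13.70 to 14.00 in Th3 and 13.78 to 13.96 in control. The part of these features in the Slc7a13 values was not tested.

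Slc3a1, the heavy chain that pairs with Slc7a9 and Slc7a13, rose by 0.29 ± 0.26 (n = 4, adjusted p = 0.0323), with log2 ratios of 0.03, 0.17, 0.64 and 0.32 on arrays 1 to 4, and was not called without the dye term. Its light chain Slc7a9 stood at -0.02 ± 0.08 and was not called. The basolateral heavy chain Slc3a2 had -0.10 ± 0.12, and its light chains Slc7a5, Slc7a6, Slc7a7 and Slc7a10 had -0.01, 0.08, 0.07 and 0.10; none passed. Slc7a12, a light chain related to Slc7a13, had -0.25 ± 0.30 (adjusted p = 0.0711). Slc7a8, the basolateral exchanger LAT2, split in the direction opposite to Slc7a13: its log2 ratios were -0.43, -0.36, 0.49 and 0.78. Here both sides moved, with control signals of 14.12 and 14.15 on arrays 1 and 2 but 13.57 and 13.36 on arrays 3 and 4, and Th3 signals of 13.69, 13.80, 14.06 and 14.14. Its mean of 0.12 ± 0.61 did not pass (adjusted p = 0.237), while its dye term did (adjusted p = 0.0431).

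**Figure D3:**
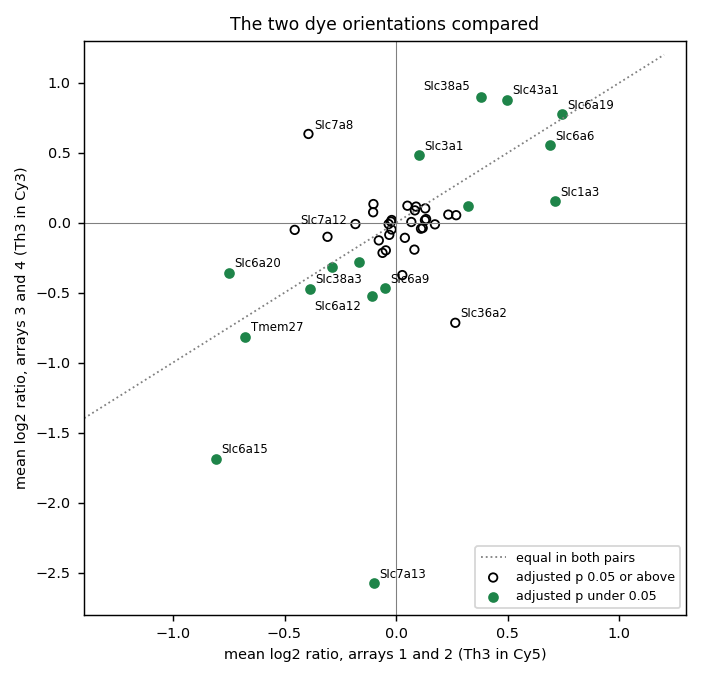
Mean log2 ratio of Th3 over control on arrays 1 and 2 (x axis, Th3 in Cy5) against that on arrays 3 and 4 (y axis, Th3 in Cy3) for the 46 transporters, filled where the adjusted p was under 0.05, with a dotted line of equal values. Slc7a13 (-0.10 and -2.58) and Slc7a8 (-0.39 and 0.63) lie farthest from the line, and Slc6a19 and Tmem27 lie close to it.

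Of the other Slc6 carriers, 1 of 11 rose and 3 fell. Slc6a15 encodes B0AT2, a sodium-coupled carrier of branched-chain amino acids and proline best known from brain. Control signals were 8.91, 9.09, 9.80 and 10.14 and Th3 signals 8.03, 8.36, 8.23 and 8.33 on the log2 scale. The groups did not overlap, the Th3 samples were alike, and the controls of arrays 3 and 4 were again the brightest. Its level in Th3 was 42.2% of control (log2 ratio -1.25 ± 0.52, n = 4, adjusted p = 0.0004), and it fell within each pair of arrays, by 0.81 on arrays 1 and 2 and by 1.69 on arrays 3 and 4. The dye term passed for this gene as well (adjusted p = 0.0476).

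Slc6a6 encodes TauT, the carrier of taurine, an osmolyte of renal cells. Its control signals were 14.62, 14.57, 14.96 and 14.83 and its Th3 signals 15.12, 15.44, 15.35 and 15.55. All Th3 samples were above all controls, a log2 ratio of 0.62 ± 0.22 (1.54-fold, n = 4, adjusted p = 0.0061), and its other probe also rose (0.45 ± 0.24, adjusted p = 0.014). Slc6a12, the betaine and GABA carrier BGT1 of the renal medulla, had log2 ratios of -0.02, -0.20, -0.42 and -0.63 (mean -0.31 ± 0.27, adjusted p = 0.0179). Slc6a9, the glycine carrier GlyT1, had -0.20, 0.10, -0.47 and -0.46 (mean -0.26 ± 0.27, adjusted p = 0.0355). The signals of the groups overlapped for both, and neither was called without the dye term. Slc6a13, a GABA and taurine carrier, had -0.20 ± 0.17 (adjusted p = 0.0686) and was not called, although it was lower on every array. Slc6a8, the creatine carrier, had -0.06 ± 0.16 and did not pass, while Gatm, which makes the creatine precursor guanidinoacetate in the proximal tubule, fell by 0.83 ± 0.13 (adjusted p = 0.00105).

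Of 5 Slc38 carriers, Slc38a3 fell and Slc38a5 was higher under the limit given above. Slc38a5 encodes SNAT5, a glutamine, serine and histidine carrier. The log2 signals were 7.25, 6.93, 6.34 and 6.42 in control and 7.49, 7.44, 7.36 and 7.19 in Th3. Th3 was brighter on every array, but the dimmest Th3 sample lay below the brightest control, and the gene was near the floor of the array, well above background in 3 of 4 control samples. The log2 ratio was 0.64 ± 0.33 (n = 4), given here without its test. It was 0.81 without background subtraction, 2.56 from the scanner's processed signals, which differ in background and in normalization, and 1.38 from the log2 ratios of the authors' deposited table. Slc38a3, the basolateral glutamine carrier SNAT3 that supplies ammonia formation in the proximal tubule, had log2 ratios of -0.67, -0.10, -0.69 and -0.26 (mean -0.43 ± 0.30, adjusted p = 0.0395), with overlapping signals. Slc38a1, Slc38a2 and Slc38a4, system A carriers, had -0.17, 0.09 and 0.15 and did not pass.

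Of 3 Slc43 carriers, Slc43a1 rose. It encodes LAT3, a facilitative carrier of branched-chain amino acids. Control signals were 7.47, 7.61, 7.01 and 7.11 and Th3 signals 7.97, 8.10, 8.09 and 7.78 on the log2 scale, without overlap. The log2 ratio was 0.69 ± 0.28 (1.61-fold, n = 4, adjusted p = 0.0032), and 1.17 from the processed signals. Slc43a1 and Slc38a5 are both known from red cell precursors as well as from other tissues. Where 10.9% of all genes were higher and 10.6% lower, 3 of 7 red cell genes rose and 2 fell. Among them Eraf, the chaperone of alpha-globin, had a log2 ratio of 1.76 ± 0.83, and Rhd, which carries the Rh antigen, 0.94 ± 0.68, while Hbb-bt and Hba-a1 fell. The summed log2 level of the list, which the globins dominate, was 14.32 to 15.33 in Th3 and 15.92 to 16.95 in control. The part of red cell RNA in the transporter values was not tested.

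Of 6 Slc1 carriers 1 rose and 1 fell. Slc1a3, the glutamate carrier GLAST, had log2 ratios of 0.85, 0.57, 0.35 and -0.04 (mean 0.43 ± 0.38, adjusted p = 0.0162), and its other probe, at 0.17, did not pass (adjusted p = 0.0868). That probe was dimmer, with a mean log2 intensity of 6.77 against 8.37, and well above background in 3 of 4 control samples. Slc1a4, the neutral amino acid exchanger ASCT1, had -0.22, -0.11, -0.25 and -0.32 (mean -0.23 ± 0.08, adjusted p = 0.0299), and its other probe stood at -0.01. Slc1a1, the apical glutamate carrier EAAC1 of the proximal tubule, had 0.16 ± 0.23 and did not pass. Of 4 cationic carriers, Slc7a3 rose by 0.22 ± 0.15 (adjusted p = 0.0438), and Slc7a1, Slc7a2 and Slc7a4 did not pass. Slc36a1, the lysosomal and apical proton-coupled carrier PAT1, was the 1 of 3 Slc36 genes called, at -0.30 ± 0.13 (adjusted p = 0.0232), and its other probe stood at -0.02. That other probe was near the floor of the array, with a mean log2 intensity of 6.57 against 9.81, so it could show little change. It was well above background in 3 of 4 control samples. Slc36a2, the renal glycine and proline carrier PAT2, ranged from 0.65 on array 2 to -1.28 on array 4, where the controls had log2 signals of 7.76 and 9.78 and the Th3 samples 8.41 and 8.49. It did not pass (adjusted p = 0.458).

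Calls differed in how firmly they stood. Slc6a15, Tmem27, Slc6a20, Slc6a6, Slc43a1 and Slc6a19 passed in each of the 18 alternative analyses run. Slc38a5 is not placed among them, since it passed the filter only through its brighter Th3 samples. It was left out where probes had to be well above background in both channels. The other 9 called transporters lost the call in at least 1. Without the dye term Slc7a13, Slc38a3, Slc6a12, Slc6a9, Slc1a4, Slc7a3, Slc3a1 and Slc1a3 lost the call, and with array pairs as a random block Slc36a1 did too. No transporter called in the main analysis changed sign in an alternative. Leaving out any 1 of the arrays left 5 or 6 transporters higher and 5 to 8 lower. Slc1a4 and Slc7a3 lost the call whichever array was left out. Without array 3 the number lower was 5, where Slc38a3, Slc36a1 and Slc6a9 were lost as well.

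Genes that work beside the transporters were counted in the same test, in which 10.9% of all genes were higher and 10.6% lower. Of 15 tested peptide carriers and brush-border hydrolases, which release and take up amino acids from filtered peptides, 1 rose and 7 fell. Acy1, which frees amino acids from their acetylated forms, had a log2 ratio of -0.92 ± 0.44 (adjusted p = 0.0058), and Mep1a, a chain of the brush-border protease meprin, -0.85 ± 0.20 (adjusted p = 0.0022), while Xpnpep2, an aminopeptidase, had 0.30 ± 0.17. Of 38 tested genes of amino acid breakdown and conversion, 6 rose and 9 fell, with Aspg, an asparaginase, at -1.60 ± 0.15 and Gldc, of the glycine cleavage system, at 0.79 ± 0.62. Of 10 other carriers, 1 rose (Slc25a12, the mitochondrial aspartate and glutamate exchanger, 0.29 ± 0.08) and 2 fell, among them Ctns, the lysosomal cystine exporter (-0.20 ± 0.10).

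ATF4 is the transcription factor that raises several of these transporters when amino acids are short. Of 29 tested genes of that response, 6 rose and 2 fell, 27.6% called beside 21.5% of all genes. The median log2 ratio over the 29 was -0.09. Ddit4 had a log2 ratio of 0.96 ± 0.21 and Cebpb 0.54 ± 0.15, while Atf3 had -0.33 ± 0.29 and Aars, an aminoacyl-tRNA synthetase, -0.28 ± 0.15. Atf4 itself had 0.01 ± 0.10, and Asns, its target in asparagine synthesis, -0.06 ± 0.18; neither passed. Of 18 genes of amino acid sensing by mTORC1, 2 rose and 6 fell, 44.4% called beside the same 21.5%. Mtor, the kinase, had -0.71 ± 0.10 (adjusted p = 0.00162), Rptor, its partner, -0.35 ± 0.13 and Sesn1 0.30 ± 0.14.

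**Figure D4:**
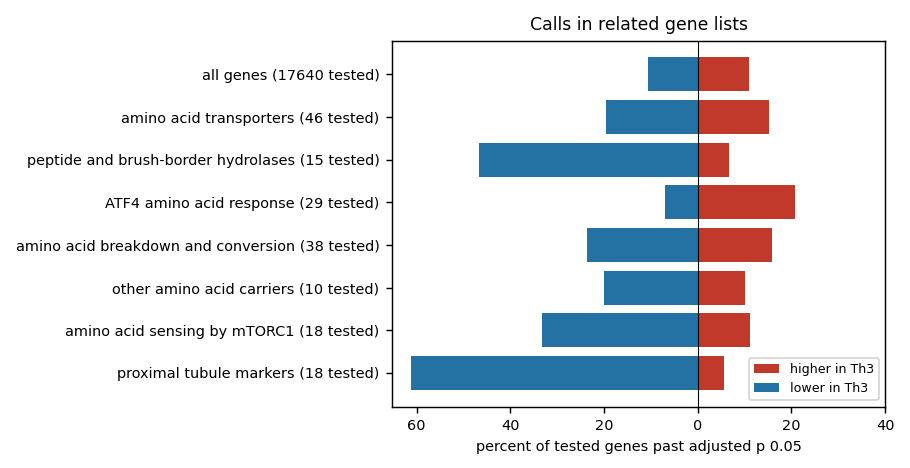
Percent of tested genes past the adjusted p of 0.05 (x axis), to the right where higher and to the left where lower in Th3, for all genes, the transporters and 6 related gene lists (y axis, number tested in brackets). The hydrolases and the proximal tubule markers have more genes called lower than higher. The ATF4 list has more called higher than lower, though its median log2 ratio was -0.09.

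Markers of cell types were set beside the transporters, in the test where 10.9% of all genes were higher and 10.6% lower. Of 18 proximal tubule markers, Slc6a19 and Slc7a13 among them, 1 rose, 11 fell and 6 were not called, with a median log2 ratio of -0.30, and their summed log2 level was 17.98 to 18.28 in Th3 and 18.93 to 19.18 in control. Without Kap, which makes up much of the control sum, it was 17.85 to 18.10 in Th3 and 18.18 to 18.27 in control. Kap led with -3.34 ± 0.32, followed among the genes that fell on every array by Slc22a7 (-0.81 ± 0.67), an organic anion carrier. Of 8 macrophage markers all 8 fell, and the median log2 ratio was -0.16 on the first pair of arrays and -0.80 on the other. Of 7 lymphocyte markers 5 fell, and their summed level was 10.85 to 11.08 in Th3 and 11.21 to 13.16 in control. None of 5 podocyte, 5 endothelial or 2 adrenal markers was called, 1 of 6 markers of the loop of Henle and distal tubule fell, and 2 of 6 collecting duct markers rose. Of 5 fat markers 1 rose and 2 fell, and of 4 liver and pancreas markers 2 rose. The part of these cell types in the transporter values was not tested.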

How the data were processed

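Each of 4 two-colour Agilent arrays (design 014868) held 1 Th3 and 1 control kidney RNA. Total RNA was amplified with an oligo-dT T7 primer and labelled as cRNA, per the labels' protocols. The deposited scanner files hold spot and background intensity values, not normalized, from Feature Extraction 9.5.3.1, per the file headers, and processed signals already background-subtracted and dye-normalized. Their log10 ratio of Cy5 over Cy3, per the file headers, checked each direction. Among the tables the authors deposited is one of log2 ratios, with a signed fold (a score by a rule not given in the sources used here) and an adjusted p-value. Other deposited tables hold copies of it and were not used. No column of another sample was found (0).

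R 4.3.3 with limma 3.58.1 and the package data.table (version 1.17.8) were used: normexp (offset 50), loess within arrays (span 0.3, 4 iterations; weight 0 for control and outlier spots), and means per probe (41174 probes from 43379 spots, at most 186 outliers on an array). The filter kept 26447 probes with a value on at least 3 arrays. Each gene was represented by its brightest kept probe, named by accession (23374 probes), symbol (6733) or synonym (2919) through RefSeq on GRCm38.p6, else as in the file (8148). Per gene, limma fitted a dye term and a Th3 term (2 residual and 4.51 prior degrees of freedom), with Benjamini-Hochberg adjustment over 17640 genes. A ± is the SD of the ratios turned to Th3 over control, and a log2 signal is the normalized signal of a sample. Values of a gene's other probes are from the same fit over all probes. The script was tested on simulated data.

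Members and lists were chosen with earlier results of these data known. Named were all called transporters, Slc6a19 and Slc7a13, their heteromer partners, transporters called in an alternative or split by dye, and up to 2 called genes each way from each list with 1 sign on every array. Others named, among them Xist, Jchain, Lyz2, Slc6a20a, Slc36a2 and Slc38a2, were chosen after their values were seen. Alternatives changed the background, normalization, filter, outliers, dye term, blocks, variances, weights, probe rule, arrays or source. Separate channels were added after seeing the data. Array positions are on mm8 from the array's annotation; exon and UTR were not used here. Some results that the naming rule covers are not reported here.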

Additional observations from a re-analysis of the deposited data

Results flagged for a closer look

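In 3 transporters the pairs of arrays differed, by the test of the dye term, which separates arrays 1 and 2 from arrays 3 and 4. For Slc7a13 the log2 ratio of Th3 over control was higher by 2.48 on arrays 1 and 2 than on arrays 3 and 4 (limma, adjusted p = 0.0356). For Slc6a15 this difference was 0.878 (adjusted p = 0.0476), with Th3 lower on all arrays. For Slc7a8 it was -1.03 (adjusted p = 0.0431), so that Th3 was lower than control on arrays 1 and 2 and higher on arrays 3 and 4. Since each dye orientation holds its own samples, a dye effect and a difference between samples cannot be told apart.

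In Slc43a3, array 3 stood apart from the others: its log2 ratio was -0.17, against 0.17, 0.18 and 0.14 on arrays 1, 2 and 4, a gap of 0.898 of the whole range. It was the 1 such gene among 46 transporters examined, where chance gives about 1 in 20.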

How the results depend on the processing

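Without the dye term, 4 transporters were called higher and 4 lower, and 1990 genes in all; with array pairs as a random block, 4 and 3, and 1193 genes. These fits count the spread between array pairs, which the main p-values leave out. Separate channels called 5757 genes, and 9 and 10 transporters. Leaving out 1 array gave 5 to 6 higher, 5 to 8 lower and 2565 to 3196 genes; without array 3, 5 were lower. The other alternatives gave counts within 1.5 times the main ones. Of 287 values of called transporters under alternatives, 49 lost the call and 0 changed sign; of 538 values of transporters not called, 8 gained it, in Slc7a12, Slc6a13, Slc38a1, Slc36a4 and Slc38a4, and 24 changed sign without a call, in 10 of the 30 genes. Slc36a1 (-0.16) and Slc1a4 (-0.12) lost the call with the mean of probes, where the other Slc36a1 probe was near the floor. The median over all genes moved by at most 0.0207 under any alternative. Aquantile leaves the ratios as they are, by its construction. Signal over background limits Slc38a5. No paired analysis was possible because the hybridisation numbers name 1 group of ratios, each of which already holds 1 Th3 and 1 control sample.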
